A study of Mus musculus with 22 samples.

Results

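The Cd300 receptors are a family of immunoglobulin-like receptors of myeloid cells. Transcripts of 5 members, Cd300a, Cd300e, Cd300lb, Cd300ld and Cd300lf, were taken by gene symbol from the 34047 genes of the RNA-seq count table, and all 5 passed the filter on low counts in each fit. The count table also has rows for 3 other Cd300 genes, and Cd300ld2, Cd300ld3, Cd300ld4 and Cd300ld5 are not analysed here. Chromatin accessibility at the loci was read from 33 of the 177956 ATAC-seq windows, namely those in the 15 peaks whose closest gene was a member.

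Conventional dendritic cells (cDCs) take up material, including dying cells, and present it to T cells. The study compared cDC1s with cDC2s that do or do not express the transcription factor T-bet. All groups came from naive mice of 6 to 10 weeks, homozygous for a Tbx21 RFP-cre knock-in allele, so that every subset carries the reporter. Cells were sorted as lineage-negative, CD64-, Ly6C-, CD11c+ MHCII+ cells, then into cDC1s by XCR1 and into cDC2s by CD11b. RFP split the cDC2s, with RFP+ cells taken as T-bet+ and RFP- cells as T-bet-. RNA-seq covered 3 libraries of each subset from spleen, and 3 cDC1, 2 T-bet+ cDC2 and 2 T-bet- cDC2 libraries from mesenteric lymph node (MLN), each from the pooled cells of 2 mice. ATAC-seq covered 2 libraries of each subset from spleen, each from 50000 cells. In bulk samples, fewer expressing cells and less RNA per cell cannot be told apart.

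The family holds receptors of opposed action. Cd300a and Cd300lf carry inhibitory tyrosine motifs in their tails and recruit phosphatases such as Ptpn6 (SHP-1). Cd300lb and Cd300ld have short tails and signal through adaptors with activating motifs, Tyrobp (DAP12) for Cd300lb and Fcer1g (the Fc receptor gamma chain) for Cd300ld. Cd300e is also a short-tailed receptor that is known from monocytes. Several members bind lipids of the membrane such as phosphatidylserine, which dying cells expose.

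The 5 genes lie in 1 cluster on chromosome 11 (mm10, positions from GENCODE M21). Cd300a occupies chr11:114890041-114904654 on the plus strand. The others are on the minus strand, Cd300lb at chr11:114922781-114934386, Cd300ld at chr11:114982274-114989922, Cd300e at chr11:115051917-115062177 and Cd300lf at chr11:115116214-115133992. Cd300lf lies within the body of Rab37, a small GTPase gene on the opposite strand. No exon base of a member is shared with another annotated gene, but whether counting used the strand is not given in the sources used here. Close copies such as Cd300ld2 to Cd300ld5 may share reads with Cd300ld, so its level carries that uncertainty.

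Sequences are shown for the start of Cd300ld, where a window was more accessible in cDC2s, and for the start of Cd300lf, the member that was higher in T-bet+ cDC2s. Both run from before the annotated start to just after it on the strand of the gene (RefSeq, GRCm38.p6), at chr11:114989837-114990136 and chr11:115133943-115134242. Capitals mark matches to the PU.1 letters GAGGAAGT or the Runx letters TGTGGTT on either strand.
Cd300ld start: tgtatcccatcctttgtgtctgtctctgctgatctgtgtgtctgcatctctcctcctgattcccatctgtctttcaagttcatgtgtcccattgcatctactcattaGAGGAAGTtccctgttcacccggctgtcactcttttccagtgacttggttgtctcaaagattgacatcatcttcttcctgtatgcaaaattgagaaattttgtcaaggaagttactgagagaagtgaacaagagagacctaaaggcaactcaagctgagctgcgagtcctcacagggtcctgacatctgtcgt
Cd300lf start: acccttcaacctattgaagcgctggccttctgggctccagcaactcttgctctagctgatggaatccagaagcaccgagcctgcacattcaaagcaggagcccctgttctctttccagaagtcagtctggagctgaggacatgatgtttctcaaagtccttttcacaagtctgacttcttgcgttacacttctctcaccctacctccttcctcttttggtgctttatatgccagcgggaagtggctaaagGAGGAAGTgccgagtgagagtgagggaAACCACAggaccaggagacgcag

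PU.1 is an ETS factor of myeloid cells. Its letters stood in the start regions of 2 of the 5 members, Cd300ld and Cd300lf, and in 3.2% of all 32851 RefSeq start regions of the same length. The Runx letters stood in 1 of 5, Cd300lf, against 5.27% of all. The C/EBP letters TTGCNNAA stood in 1 of 5, Cd300a, against 10.8% of all. Letters of T-box, AP-1, ETS-IRF composite, IRF, RORE, Nr4a, KLF and RBPJ motifs were searched too and stood in 0 of 5. Their shares of all start regions ran from 1.51% (Nr4a) to 9.99% (KLF). A match describes these letters only.

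The labels were checked against marker genes. In spleen, Xcr1 of cDC1s was between 806 and 1163 CPM (read counts scaled by library size) in cDC1 libraries and at most 12.8 in cDC2 libraries, and Sirpa of cDC2s was at least 638 in cDC2s and at most 8.47 in cDC1s. In MLN, Xcr1 was at least 444.9 CPM in cDC1s and at most 34.0 in cDC2s, and Sirpa at least 218.9 in cDC2s and at most 7.98 in cDC1s. Tbx21 was between 17.2 and 24.9 CPM in spleen T-bet+ cDC2s and at most 2.38 in T-bet- cDC2s, and in MLN it was 2.93 and 7.19 against 0.538 and 0.918. Esam, a marker of splenic T-bet+ cDC2s, did not separate the MLN subsets (63.0 and 124.9 against 119.9 and 144.5 CPM). Libraries held 20993220 to 29006549 reads on genes. In spleen, 3 libraries (T-bet- cDC2 replicates 1 and 2 and cDC1 replicate 3) stood apart from the other 6 in how their levels vary with the GC content of transcripts, and values with this library class as a term are given where they bear on a result.

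CPM values are scaled by TMM over all 16 RNA libraries, and levels are compared between genes only per kilobase of exon (RPKM). Per length, Cd300a was the highest of the 5 in every group, from 171 ± 15.7 RPKM (SD, n = 3) in spleen T-bet- cDC2s to 1.75 ± 0.831 (n = 3) in MLN cDC1s. In spleen T-bet+ cDC2s it was followed by Cd300ld at 47.1 ± 6.27 RPKM and Cd300lf at 40.9 ± 1.41, and Cd300e and Cd300lb were at 9.36 ± 0.669 and 5.96 ± 2.84. In T-bet- cDC2s of spleen the order after Cd300a was Cd300ld (61.5 ± 13.8 RPKM), Cd300e (47.8 ± 9.97), Cd300lb (30.4 ± 9.68) and Cd300lf (16 ± 1.2). Cd300lf thus ranked 3 of 5 per length in T-bet+ and last in T-bet- cDC2s of spleen, while it ranked 3 in both MLN cDC2 subsets. In spleen cDC1s, Cd300e was second, at 16.7 ± 2.28 RPKM against 20.0 ± 3.29 for Cd300a.

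**Figure D1:**
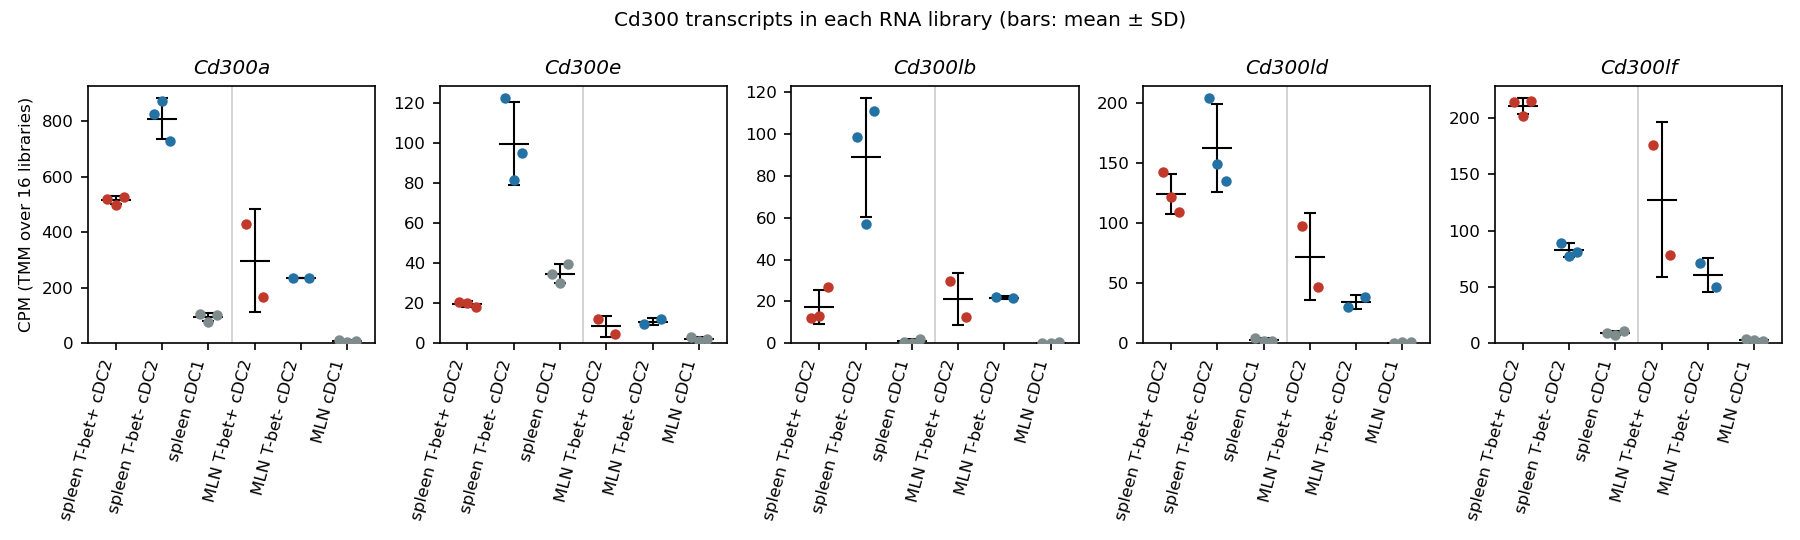
CPM of each member (vertical axes from 0, TMM over 16 libraries) in each RNA library, by tissue and subset. Points are libraries and bars the mean ± SD (n = 3, or 2 for MLN cDC2s). Cd300lf was highest in spleen T-bet+ cDC2s, and the other members in spleen T-bet- cDC2s.

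The first comparison asked how the receptors differ between the 2 kinds of spleen cDC2. Relative to T-bet- cDC2s, the T-bet+ cells had less Cd300e and more Cd300lf, and these were the 2 of 5 members that passed the test (edgeR's quasi-likelihood test, adjusted p under 0.05). Of all 14377 genes tested, 5.38% passed, 3.44% as lower and 1.95% as higher in T-bet+ cDC2s. The ranges of the subsets did not overlap for 4 of the 5 members, as for 27.0% of all genes.

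Cd300lf, an inhibitory receptor, was at 214.3, 202.2 and 215.1 CPM in T-bet+ and 89.3, 77.2 and 81.1 in T-bet- cDC2s. Every T-bet+ library was above every T-bet- library. The log2 fold change was 1.35 (SE 0.199, edgeR adjusted p = 0.00492), a 2.56-fold difference, and it was 1.51 (SE 0.22, adjusted p = 0.00365) with library class as a term.

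Cd300e was at 20.5, 20.2 and 17.9 CPM in T-bet+ and 122.6, 81.7 and 95.2 in T-bet- cDC2s. All T-bet+ libraries were below all T-bet- libraries. The log2 fold change was -2.35 (SE 0.235, edgeR adjusted p = 0.000663), and -2.22 (SE 0.246) with library class as a term.

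Cd300lb, the Tyrobp-coupled receptor, was at 12.2, 13.0 and 27.0 CPM in T-bet+ and 98.5, 57 and 111 in T-bet- cDC2s. The ranges did not overlap and the log2 fold change was the same size as that of Cd300e, -2.35, but with an SE of 0.644 it did not pass (edgeR adjusted p = 0.0696). It passed in 5 of 15 alternatives, among them DESeq2's test (adjusted p = 0.00263) and the fit without cDC1 replicate 3 (adjusted p = 0.00941).

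Cd300a, the other inhibitory member, was at 520.1, 498.6 and 527.9 CPM in T-bet+ and 826.1, 872.6 and 727.4 in T-bet- cDC2s. These ranges did not overlap, and the log2 fold change of -0.65 (SE 0.175) did not pass (edgeR adjusted p = 0.066). Without T-bet- replicate 3 it passed at -0.80 (adjusted p = 0.0209), and without cDC1 replicate 2 at -0.73 (adjusted p = 0.0367). The value was -0.51 in the fit with library class (adjusted p = 0.229).

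Cd300ld, the Fcer1g-coupled receptor, was at 142.3, 121.5 and 109.6 CPM in T-bet+ and 204.0, 149.6 and 134.7 in T-bet- cDC2s. The ranges overlapped, and the log2 fold change was -0.38 (SE 0.283, edgeR adjusted p = 0.524).

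Against cDC1s, both kinds of spleen cDC2 had more of most members. In T-bet- cDC2s all 5 members were higher than in cDC1s (9.65% of all genes were called higher), and in T-bet+ cDC2s 4 were higher and Cd300e lower (9.97% of all genes were called higher and 8.2% lower). Both comparisons share the same cDC1 libraries. Cd300ld was at 4.17, 2.22 and 2.27 CPM in cDC1s, with log2 fold changes of 5.43 for T-bet+ (SE 0.345, edgeR adjusted p = 8.39e-06) and 5.81 for T-bet- cDC2s (SE 0.351, adjusted p = 7.23e-06). Cd300lb had few reads in cDC1s, 9, 8 and 44 (0.365, 0.329 and 2.13 CPM). Its log2 fold changes were 4.23 (SE 0.726, edgeR adjusted p = 0.00314) and 6.58 (SE 0.798, adjusted p = 0.000469).

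The inhibitory receptors were present in cDC1s at lower levels. Cd300a was at 105.1, 77.0 and 102.7 CPM there, and T-bet+ cells had 5.44-fold and T-bet- cells 8.52-fold more (edgeR adjusted p = 2.27e-05 and 7.39e-06). Cd300lf was at 8.79, 7.66 and 11.2 CPM in cDC1s, and T-bet+ cells had 22.9-fold and T-bet- cells 8.96-fold more (adjusted p = 2.64e-06 and 1.25e-05).

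Cd300e alone was ordered T-bet- cDC2, cDC1, T-bet+ cDC2. Its cDC1 libraries, at 34.8, 30.1 and 39.6 CPM, lay between the ranges of both cDC2 subsets. The difference from T-bet- cDC2s was 2.87-fold (log2 fold change of T-bet- over cDC1 1.52, SE 0.228, edgeR adjusted p = 0.00164). That from T-bet+ cDC2s was smaller, with a log2 fold change of T-bet+ over cDC1 of -0.83 (SE 0.225, edgeR adjusted p = 0.0302). This last call was lost without any 1 of the 3 T-bet+ libraries or without cDC1 replicate 1 or 3 (adjusted p up to 0.117), with no filter on low counts (adjusted p = 0.0913) and with the replicate number as a block (adjusted p = 0.0755).

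**Figure D2:**
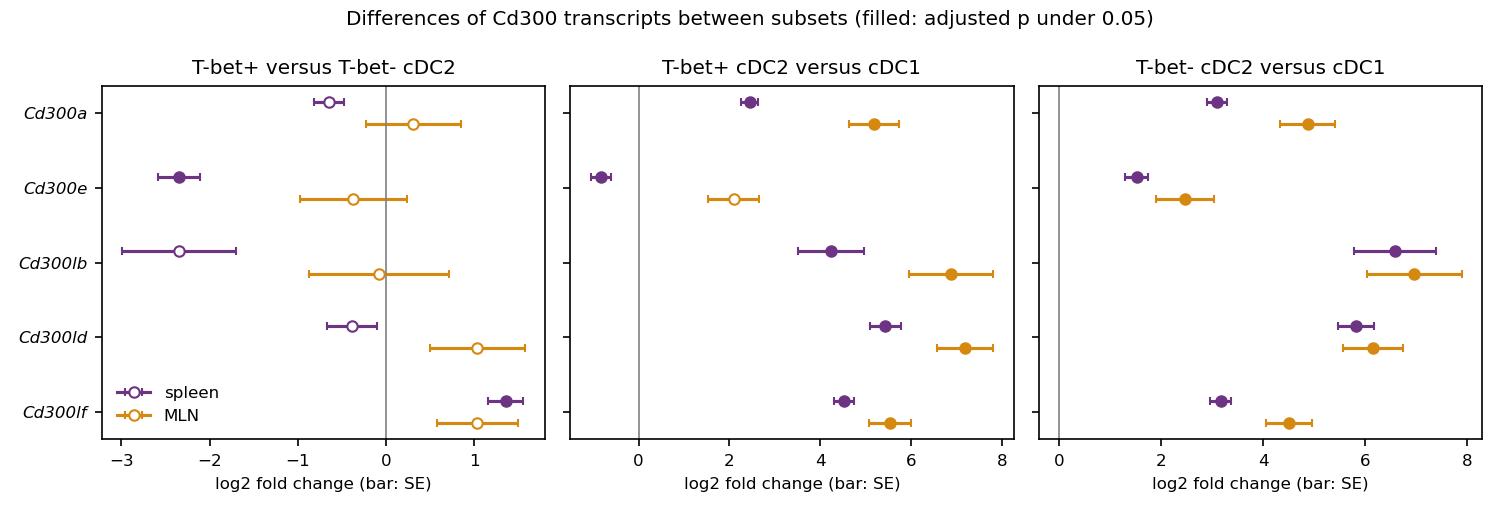
Log2 fold change of each member (horizontal axis, first subset over second, bars SE) for 3 pairs of subsets in spleen and in MLN. Filled points have an adjusted p under 0.05. Cd300e and Cd300lf differ in opposite directions between spleen cDC2s, and Cd300e of spleen T-bet+ cDC2s is the filled point below 0 against cDC1s.

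In MLN the same contrast of cDC2s was tested with 2 libraries a subset. None of the 5 members passed (0.0% of 15298 genes did), and 0 had an unadjusted p under 0.05. DESeq2 called 0 members and 348 of 15127 genes. Across all genes 1444 had an unadjusted p under 0.05 in edgeR. Cd300lf was at 176.1 and 78.7 CPM in T-bet+ and 71.0 and 49.6 in T-bet- cDC2s, ranges that did not overlap, as for 40.9% of all genes. Its log2 fold change was 1.03 (SE 0.457, edgeR adjusted p = 0.54). Cd300ld was at 97.6 and 46.6 against 30.4 and 38.5 CPM, also without overlap (log2 fold change 1.03, SE 0.54, edgeR adjusted p = 0.624). Cd300a (428.0 and 166.5 against 233.9 and 233.4 CPM), Cd300e (12.3 and 4.86 against 9.65 and 12) and Cd300lb (29.9 and 12.5 against 22.2 and 21.4) overlapped.

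The 2 MLN T-bet+ libraries differed from each other in all 5 members. Replicate 1 was above replicate 2 by 2.09-fold for Cd300ld to 2.57-fold for Cd300a. Replicate 1 also had more Sirpa (579.4 against 218.9 CPM) and Itgam (55.1 against 18.9), markers of cDC2s, and less Xcr1 (5.19 against 34.0), Clec9a (0.264 against 8.75) and Irf8 (43.0 against 236.0), markers of cDC1s. The part of this difference in the results was not tested. The T-bet- replicates were closer, with Cd300a at 233.9 and 233.4 CPM.

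MLN cDC1s had little of any member. Cd300lb had 1, 0 and 13 reads, Cd300ld 3, 17 and 18, Cd300e 72, 21 and 61, Cd300lf 86, 69 and 51 and Cd300a 311, 114 and 199. T-bet- cDC2s were higher than these cDC1s for all 5 members (4.34% of all genes were called higher), with log2 fold changes of 2.46 (Cd300e, SE 0.566, edgeR adjusted p = 0.0455) to 6.96 (Cd300lb, SE 0.932, adjusted p = 0.0064). T-bet+ cDC2s were higher for 4 of them (4.11% of all genes), from 5.17 for Cd300a (SE 0.546, edgeR adjusted p = 0.0026) to 7.18 for Cd300ld (SE 0.61, adjusted p = 0.00102). Cd300e had a log2 fold change of 2.09 there (SE 0.563, edgeR adjusted p = 0.0711), and it passed in 4 of 14 alternatives, among them DESeq2 (adjusted p = 0.00656). The Cd300e call in T-bet- cDC2s was lost without either T-bet- replicate (adjusted p = 0.195 in both) and without cDC1 replicate 2 or 3 (adjusted p = 0.093 and 0.136) and with the size factors of DESeq2 (0.0513), and that of Cd300lb without T-bet- replicate 1 (adjusted p = 0.0526).

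Levels were then compared between the tissues within each subset, in a fit of all 16 libraries. In cDC1s, 4 of 5 members were higher in spleen than in MLN (3.93% of 16795 genes were called higher there). Cd300e differed most, at 34.8 ± 4.76 CPM in spleen and 2.02 ± 1.02 in MLN (log2 fold change 4.10, SE 0.425, edgeR adjusted p = 0.000308). Cd300a was at 94.9 ± 15.6 and 8.27 ± 3.94 CPM (3.52, SE 0.371, adjusted p = 0.000308). Cd300ld (2.51, SE 0.48) and Cd300lf (1.73, SE 0.311) had adjusted p of 0.00661 and 0.00495, and the call of Cd300ld was lost when only the compared libraries were fitted (adjusted p = 0.0583). Cd300lb overlapped between the tissues (2.32, SE 0.937, edgeR adjusted p = 0.113) and passed in DESeq2 (adjusted p = 0.0217), and without MLN cDC1 replicate 3 its log2 fold change was 5.16 (adjusted p = 0.0442).

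Among T-bet- cDC2s, 3 members were higher in spleen (1.59% of all genes were), namely Cd300e with a log2 fold change of 3.21 (SE 0.474, edgeR adjusted p = 0.00305), Cd300ld with 2.24 (SE 0.486, adjusted p = 0.0166) and Cd300a with 1.79 (SE 0.398, adjusted p = 0.0188). Without MLN T-bet- replicate 1 or 2 only Cd300e was called, with adjusted p of 0.169 and 0.131 for Cd300a and 0.181 and 0.0937 for Cd300ld. Without spleen T-bet- replicate 2 the call of Cd300a was lost too (adjusted p = 0.0598). Cd300lb (2.02, SE 0.825) and Cd300lf (0.45, SE 0.331) did not pass, though Cd300lb did when only the compared libraries were fitted (adjusted p = 0.0347).

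In T-bet+ cDC2s 0 members were called between the tissues by edgeR (5.09% of all genes were), 2 had an unadjusted p under 0.05 and DESeq2 called 1, Cd300e. Log2 fold changes of spleen over MLN ran from -0.29 for Cd300lb (SE 0.762) to 1.19 for Cd300e (SE 0.431, edgeR adjusted p = 0.107). Without MLN T-bet+ replicate 1, the library with the higher levels, Cd300a (1.59, adjusted p = 0.045) and Cd300e (1.96, adjusted p = 0.0444) were called. All MLN libraries fall in the same library class as the 3 spleen libraries that stood apart. With library class as a term the counts of called members were again 4 in cDC1s, 3 for T-bet- and 0 for T-bet+ cDC2s. All spleen T-bet+ libraries fall in the other class, so class and tissue coincide in T-bet+ cDC2s. The class term is then set by spleen libraries of the other subsets alone, and the T-bet+ count does not show whether library class matters.

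**Figure D3:**
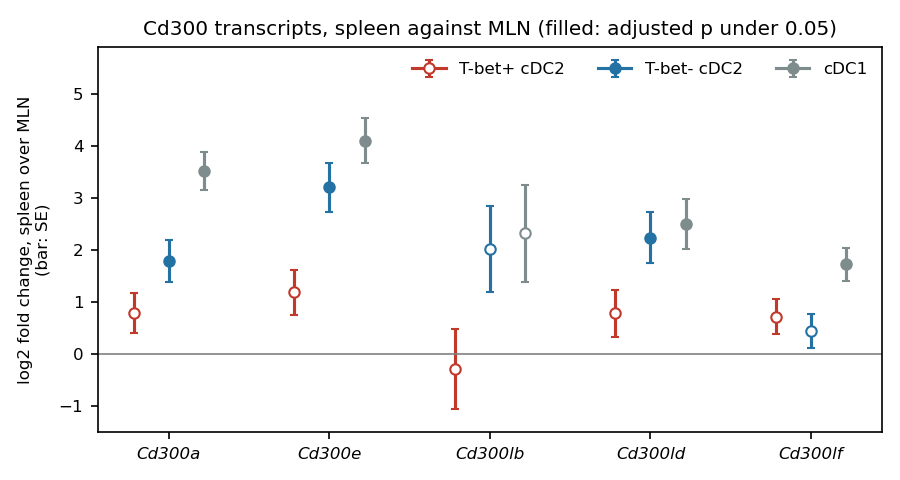
Log2 fold change of spleen over MLN (vertical axis, bars SE) for each member in each subset. Filled points have an adjusted p under 0.05. Of the filled points, 4 are cDC1s and 3 are T-bet- cDC2s, and all lie above 0.

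Whether the contrasts themselves differ between the tissues was tested as an interaction. For T-bet+ against T-bet- cDC2s, 0 members passed in edgeR (0.00595% of 16795 genes did), 2 had an unadjusted p under 0.05 (5.04% of genes had), and DESeq2 called 0. Cd300e had the smallest p of the members there (difference of log2 fold changes -2.02, SE 0.593, unadjusted p = 0.00421, edgeR adjusted p = 0.856). For T-bet+ cDC2s against cDC1s, 0 members passed in edgeR (0.0893% of genes did), while all 5 had an unadjusted p under 0.05 (8.48% of genes had) and DESeq2 called 2. These were Cd300a (-2.73, SE 0.503, edgeR adjusted p = 0.0643, DESeq2 adjusted p = 0.00016) and Cd300e (-2.91, SE 0.564, edgeR adjusted p = 0.0783, DESeq2 adjusted p = 0.000165). Both passed in edgeR without MLN T-bet+ replicate 2 (adjusted p = 0.0162 and 0.0434) or without MLN cDC1 replicate 1 (adjusted p = 0.00955 and 0.0286). For T-bet- cDC2s against cDC1s 0 members passed in edgeR (0.0357% of genes did) or DESeq2, and 2 had an unadjusted p under 0.05 (5.9% of genes had).

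Across the 16 libraries the members were not equally alike. On the log2 CPM scale, Pearson's r between pairs of members was highest for Cd300ld and Cd300lf (0.953) and lowest for Cd300e and Cd300lf (0.506), with the libraries sharing tissue and subset. By the same measure over 16794 other genes, the gene most like Cd300lf was Cd7 (0.992), followed by Sh2d1b1 (0.987). Cd300ld was most like Adgre1 (0.986), which encodes F4/80, and Lair1 (0.983), a collagen receptor with inhibitory motifs. Cd300lb was most like Cd209a (0.974), a C-type lectin, and next Cd300lg (0.969). Cd300a was most like Maml3 (0.985), a Notch co-activator, and Cd300e most like Serpinb10 (0.963).

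The other Cd300 genes of the table were also read. The row named Cd300d, a RefSeq synonym of Cd300c2, was at 160.0 ± 19.1 CPM in T-bet+, 238.0 ± 58.8 in T-bet- and 34.5 ± 5.13 in cDC1 libraries of spleen, and both cDC2 subsets were higher than cDC1s (edgeR adjusted p = 0.000224 and 6.19e-05). In spleen, Cd300lg was at 2.61 ± 0.836 CPM in T-bet+ cDC2s, below the 18.9 ± 2.92 of T-bet- cDC2s (log2 fold change -2.86, SE 0.625, edgeR adjusted p = 0.0299). In the 3 MLN cDC1 libraries Cd300lg had 0 reads, so that it was at least 64.5-fold higher in MLN T-bet+ and 51.8-fold higher in T-bet- cDC2s, with 3 reads per library as the floor. The 2 MLN T-bet+ libraries differed here too, and without replicate 1 the first bound was 29.5-fold. The row named Cd300c, a symbol that RefSeq also lists as a synonym of Cd300c2, was low in all groups (0.926 to 8.24 CPM on average). Like Cd300e it was lower in T-bet+ cDC2s than in cDC1s of spleen (2.2 against 8.24 CPM, log2 fold change -1.90, SE 0.346, edgeR adjusted p = 0.00427).

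Signalling partners of the receptors were read from a list of 14 genes. Of these adaptors, kinases and phosphatases, edgeR called 0 for T-bet+ against T-bet- cDC2s, with a median log2 fold change of -0.00189 (all genes -0.0134), 2 had an unadjusted p under 0.05, and DESeq2 called 0. Against cDC1s, 5 were higher and 2 lower in T-bet+ cDC2s (9.97% and 8.2% of all genes), and 5 were higher and 1 lower in T-bet- cDC2s (9.65% and 6.2% of all genes). Fcer1g, the partner of Cd300ld, was at 658.6 CPM on average in T-bet+ and 951.9 in T-bet- libraries against 17.5 in cDC1s. Tyrobp, the partner of Cd300lb, was at 1109 and 1351 against 300.1 CPM. Ptpn6, which inhibitory members recruit, was at 1312 and 1127 against 349.0 CPM, and all 3 were called in both comparisons (edgeR adjusted p of 0.00142 or less). Inpp5d, the lipid phosphatase SHIP1, was lower in both cDC2 subsets (388.4 and 536.8 against 1096 CPM, edgeR adjusted p = 0.00696 and 0.0421).

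Other receptors of phosphatidylserine and its bridging proteins were read beside the family. Of 10 tested genes, 5 were lower in T-bet+ cells, relative to T-bet- cells of spleen, and 0 higher in edgeR (3.44% and 1.95% of all genes), with a median log2 fold change of -1.87 (all genes -0.0134). In this list 9 genes had an unadjusted p under 0.05, and DESeq2 called 6 lower and 1 higher. Mertk (log2 fold change -4.71, SE 1.06, edgeR adjusted p = 0.0327) and Axl (-3.79, SE 0.402, adjusted p = 0.000844) are kinases that clear dying cells. The scavenger receptor Cd36 (-3.76, SE 0.544, edgeR adjusted p = 0.00441) and the Mertk ligand Pros1 (-2.38, SE 0.471, adjusted p = 0.0195) were lower too. Of 17 other paired myeloid receptors tested, edgeR called 5 lower and 0 higher (median -1.21), 10 had an unadjusted p under 0.05, and DESeq2 called 9 lower and 0 higher. Those lower in edgeR included Lilra5 (-4.65, SE 1.01, edgeR adjusted p = 0.0287), Pilra (-3.64, SE 0.294, adjusted p = 0.00024), Lilrb4a (-3.38, SE 0.547, adjusted p = 0.00787) and Trem1 (-2.46, SE 0.409, adjusted p = 0.00902). Cd300lf was the member that differed in the opposite direction to these. Against cDC1s, 12 of the 17 were higher for T-bet+ and 15 for T-bet- cDC2s, with 1 lower in each (9.97% and 9.65% of all genes were higher, and 8.2% and 6.2% lower). Between MLN cDC2s edgeR called 0 of either list, with an unadjusted p under 0.05 for 5 phosphatidylserine genes and 2 paired receptors, and DESeq2 called 3 and 1 as lower in T-bet+ cDC2s.

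Markers of other myeloid cells varied with the subsets. The 10 monocyte and macrophage markers summed to 4813 to 5511 CPM in spleen T-bet+, 3364 to 4884 in T-bet- cDC2s and 2267 to 3112 in cDC1s, and most of each sum was Nr4a1. Fcgr1 (5.36 to 7.92 against 0.413 to 0.832 CPM) and Ace (51.8 to 194.4 against 4.48 to 7.81) were above their T-bet+ ranges in T-bet- cDC2s, as Cd300e and Cd300lb were. Of this list 1 marker, Vcan, had 3 reads or fewer in every spleen cDC1 library, and 0 did in the spleen cDC2s. The sort excluded cells with surface CD64, which Fcgr1 encodes. The part of these cells in the results was not tested. The 8 neutrophil markers summed to 86.0 to 95.4 CPM in spleen T-bet+ and 85.2 to 132.5 in T-bet- cDC2s against 21.9 to 44.5 in spleen cDC1s, and to at most 4.20 in MLN cDC2s and 17.1 in MLN cDC1s. In spleen these sums were higher in cDC2s than in cDC1s, as most members were, and their part in the results was not tested. Over all groups the sums were at most 0.530 CPM for mast cell and basophil, 9.06 for T and NK cell, 76.4 for B cell and 93.5 for plasmacytoid DC markers.

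ATAC-seq of spleen asked where chromatin at the loci differs. Of the 33 windows of 150 bases, 32 were tested, and a call needed both an adjusted p under 0.01 and a log2 fold change beyond 0.5 in either direction. Between T-bet+ and T-bet- cDC2s 2 windows were called, as were 6.28% of all 166547. Against cDC1s 10 were called in T-bet+ cDC2s (23.0% of all), 6 of them higher, and 7 in T-bet- cDC2s (17.9% of all), 5 of them higher. Of all windows, 11% were called higher in T-bet+ and 7.32% in T-bet- cells than in cDC1s. With library size alone as the scale, T-bet+ cDC2s against cDC1s gave 8 windows, 4 of them higher, and over all windows the share of higher calls moved from 47.9% to 35.6%.

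Sequences of 3 called windows away from gene starts follow, on the plus strand, 2 of them more accessible and 1 less accessible in cDC2s. They are an intronic window of Cd300e (chr11:115054612-115054761), an intergenic window 13402 bases upstream of the start of Cd300e (chr11:115075505-115075654) and an intergenic window 17694 bases downstream of the start of Cd300lb, past its end (chr11:114916618-114916767). Capitals mark matches, on either strand, to the KLF letters CCCCACCC and the AP-1 letters TGANTCA in the first and the Nr4a letters AAAGGTCA in the third.
Cd300e intron: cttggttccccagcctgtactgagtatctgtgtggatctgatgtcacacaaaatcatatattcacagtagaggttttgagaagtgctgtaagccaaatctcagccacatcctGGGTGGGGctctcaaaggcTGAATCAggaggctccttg
Cd300e upstream: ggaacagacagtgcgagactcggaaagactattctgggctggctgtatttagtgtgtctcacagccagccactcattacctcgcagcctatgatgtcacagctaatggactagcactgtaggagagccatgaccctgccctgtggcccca
Cd300lb downstream: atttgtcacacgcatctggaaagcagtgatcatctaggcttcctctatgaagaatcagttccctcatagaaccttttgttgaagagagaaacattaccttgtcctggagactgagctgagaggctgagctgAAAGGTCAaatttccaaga

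The KLF, AP-1 and Nr4a letters stood in 3.50%, 7.90% and 1.01% of all 177956 windows. Among the 33 windows of the members, AP-1 letters stood in 3, PU.1 letters in 2 and the T-box letters AGGTGTNA in 0, against 7.90%, 5.50% and 1.92% of all windows. Runx and ETS-IRF letters stood in 3 each (5.23% and 6.80% of all), and KLF and RBPJ letters in 2 each (3.50% and 3.76%). C/EBP, RORE and Nr4a letters stood in 1 each (5.89%, 1.57% and 1.01%) and IRF letters in 0 (6.57%).

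At the start of Cd300ld, the window chr11:114989901-114990050 had 63 and 27 reads in T-bet+, 25 and 62 in T-bet-, and 7 and 6 in cDC1 libraries. Every cDC2 library was above both cDC1 libraries. Over cDC1s the log2 fold change was 2.56 for T-bet+ (edgeR adjusted p = 1.2e-05) and 2.53 for T-bet- cells (adjusted p = 2.1e-05), while between the cDC2s it was 0.02. This window holds the PU.1 letters of the start sequence above, and both calls held in all 14 alternatives that gave a value.

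Within Cd300a the windows ran in both directions. The 2 windows in the last exon, in its 3′ untranslated part (chr11:114903066-114903215 and chr11:114903362-114903511), were more accessible in T-bet- cDC2s than in cDC1s (log2 fold changes 1.83 and 1.96, edgeR adjusted p = 2.6e-07 and 4e-07). The first had 118 and 92 reads in T-bet+, 115 and 127 in T-bet- and 38 and 23 in cDC1 libraries. This window was also called higher in T-bet+ cDC2s than in cDC1s (log2 fold change 1.565), and both its calls held in all 15 alternatives. The second had 53 and 51, 90 and 116, and 27 and 20 reads in the same order, with fewer in T-bet+ cells than in their T-bet- counterparts (log2 fold change -1.04, edgeR adjusted p = 0.0059). That call was lost without any 1 of the 4 cDC2 libraries (adjusted p from 0.0239 to 0.064) and in DESeq2 (0.0369). Near the start, the window chr11:114890168-114890317 in the 5′ untranslated part had fewer reads in T-bet+ cDC2s (78 and 74) than in cDC1s (126 and 113, log2 fold change -0.87, edgeR adjusted p = 0.0027), with 84 and 134 in T-bet- cDC2s. It was lost without T-bet+ replicate 2 or either cDC1 replicate (adjusted p from 0.0201 to 0.0279) and in DESeq2 (0.0136). Upstream of Cd300a, the window chr11:114885919-114886068 was lower in both cDC2 subsets than in cDC1s (log2 fold changes -1.15 for T-bet+ and -1.19 for T-bet-). Each of these calls held in 10 of 15 alternatives. Another upstream window, chr11:114885168-114885317, was higher in T-bet+ cDC2s than in cDC1s (0.89), a call that held in 8 of 15. The transcript of Cd300a was higher in both cDC2 subsets.

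Cd300e had windows that differed from its transcript. Its window chr11:115071741-115071890 was called higher in T-bet+ cDC2s than in cDC1s (log2 fold change 1.01), and the call held in 7 of 15 alternatives. Its intronic window, shown above, had 21 and 20 reads in T-bet+, 24 and 40 in T-bet- and 2 and 4 in cDC1 libraries (log2 fold changes over cDC1s 2.50 and 3.19, edgeR adjusted p = 0.00055 and 5.5e-06). The call in T-bet+ cDC2s was lost without cDC1 replicate 1 (adjusted p = 0.0293) and in DESeq2 (0.0112). The upstream window had 69 and 41 reads in T-bet+, 8 and 29 in T-bet- and 4 and 3 in cDC1 libraries. It was thus most accessible in the subset with the lowest Cd300e transcript in spleen. This window lies between the bodies of Cd300e and Rab37 (from chr11:115091431) and was given to Cd300e by closeness alone. The log2 fold change was 1.54 between the cDC2s (edgeR adjusted p = 0.0043) and 3.71 for T-bet+ cDC2s over cDC1s (adjusted p = 2.1e-08). The first of these was lost without T-bet- replicate 1 (1.00) or without T-bet+ replicate 1 (1.09). With all libraries, it was lost with library size alone as the scale (1.44, edgeR adjusted p = 0.0102) and in DESeq2 (adjusted p = 0.0793). T-bet- cDC2s were above cDC1s there too (2.18, edgeR adjusted p = 0.004), a call lost without T-bet- replicate 2 (1.17, adjusted p = 0.343) or either cDC1 replicate (adjusted p = 0.0277 and 0.0406) and in DESeq2 (0.0345).

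Cd300lb had 10 windows in 5 peaks, of which 1 was called. The downstream window shown above had 20 and 14 reads in T-bet+, 22 and 14 in T-bet- and 48 and 47 in cDC1 libraries, so that it was lower in both cDC2 subsets (log2 fold changes -1.70 and -1.54, edgeR adjusted p = 0.00026 and 0.0011), whereas the transcript was higher. The call in T-bet+ cDC2s was lost without T-bet+ replicate 2 (adjusted p = 0.0101), and that in T-bet- cDC2s without T-bet- replicate 2 (0.0757) or cDC1 replicate 2 (0.0141) and in DESeq2 (0.0204).

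Cd300lf had 3 windows in 1 peak, within the gene, 13831 to 14379 bases downstream of its start, and that peak was equally close to Rab37. The one called, chr11:115119539-115119688, was lower in T-bet+ cDC2s (34 and 25 reads) than in cDC1s (57 and 64, log2 fold change -1.26, edgeR adjusted p = 0.0018), with 24 and 54 in T-bet- cDC2s. It was lost without T-bet+ replicate 2 (adjusted p = 0.0357) or cDC1 replicate 2 (0.0399) and in DESeq2 (0.0221). The table has no window at the start of Cd300lf.

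Rab37, whose body spans Cd300lf, was at 41.4 ± 7.47 CPM in spleen T-bet+ cDC2s, above the 5.36 ± 2.16 of T-bet- cDC2s (log2 fold change 2.95, SE 0.368, edgeR adjusted p = 0.00209), as Cd300lf was. A window at an annotated start of Rab37 (chr11:115154030-115154179) had 282 and 189 reads in T-bet+, 33 and 60 in T-bet- and 37 and 42 in cDC1 libraries (log2 fold change between the cDC2s 2.29, edgeR adjusted p = 1.8e-10). A window next to the upstream one of Cd300e and assigned to Rab37 (chr11:115076716-115076865) had 132 and 113, 21 and 43, and 10 and 9 reads.

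**Figure D4:**
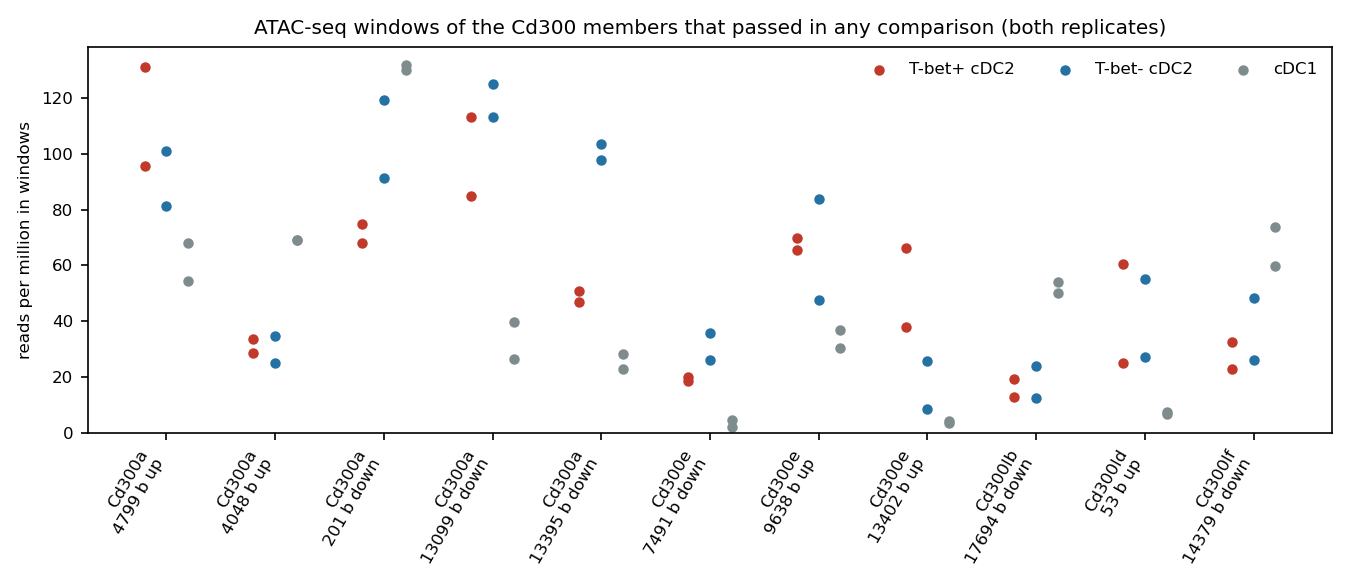
Reads in windows normalised by TMM and library size (vertical axis from 0) in both replicates of each spleen subset, for the 11 windows of the members called in any comparison. Labels give the gene and the distance in bases (b) up or down from its start. The Cd300ld start window is lowest in cDC1s, and the Cd300e window 13402 bases up is highest in T-bet+ cDC2s.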

How the data were processed

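RNA-seq counts of 16 sorted libraries and ATAC-seq counts of 6 were used. The authors aligned RNA reads to mm10 with HISAT2 2.1.0, kept unique alignments and used Rsubread to count them per GENCODE vM17 gene. The deposited counts are raw. ATAC-seq reads were aligned by the authors with Bowtie2 2.2.5 and shifted for the transposase, and peaks were called with MACS2 on all replicates together. The deposited values are raw counts in windows around summits, with the positions of windows and peaks in separate files. Depth was 20993220 to 29006549 reads on genes and 7270164 to 10081555 reads in windows per library, so counting error is small for most members, but not for the low members in cDC1s or for windows, many of which held few reads.

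Groups came from the sample labels. Where the methods swap RFP+ and RFP- once, the labels were followed. Genes were kept by filterByExpr of edgeR 4.0.16, scaled by TMM and tested by its quasi-likelihood test with Benjamini-Hochberg adjustment over all genes of a spleen (9 libraries), MLN (7) or joint (16) fit. Thresholds were an adjusted p under 0.05, and for windows 0.01 with an absolute log2 fold change over 0.5. CPM for display used TMM over 16 libraries, and RPKM the union of GENCODE M21 exons. DESeq2 1.42.0, R 4.3.3, Python 3.11.15 and pandas 2.3.3 were used. Peaks were given to their closest gene, up to 50000 bases away. Motifs were literal matches on both strands of GRCm38.

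The members, gene lists and tests were chosen with earlier results of these data known. Named genes are the members, up to 4 called genes of each list with the largest change between spleen cDC2s, neighbours, and genes most like a member. Inpp5d, Fcer1g, Tyrobp, Ptpn6, and the cDC1 and monocyte markers named were chosen after their values were seen. Named windows are, for each member, those of lowest p and those at gene starts. Other called windows were named after their values were seen. Alternatives were DESeq2's test or size factors, other count filters, library class, replicate blocks, only the compared libraries, each library left out, and for windows stricter thresholds, whole peaks and distance. No libraries held identical counts. Nothing but the labels tells replicates apart, so p-values measure the spread between these libraries. On simulated counts with 200 genes changed 4-fold, the spleen fit for T-bet+ against T-bet- cDC2s (14377 genes) recovered 118 with 8 false calls and the MLN fit (15298 genes) 51 with 1, and 8-fold, 179 with 12 and 180 with 11. With 200 windows changed 4-fold, 161 were recovered with 4 false calls. The simulation changed only features above a lower limit of level, with independent scatter in each library. On the real counts the MLN fit called 0 of 15298 genes for T-bet+ against T-bet- cDC2s. The simulated recovery therefore does not give the power of that fit.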

Additional observations from a re-analysis of the deposited data

Results flagged for a closer look

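The contrast of T-bet+ cDC2s with cDC1s ran in opposite directions in the tissues for Cd300e. In spleen all 3 T-bet+ libraries (17.9 to 20.5 CPM) were below all 3 cDC1 libraries (30.1 to 39.6 CPM). In MLN both T-bet+ libraries (4.86 and 12.3 CPM) were above all 3 cDC1 libraries (0.911 to 2.92 CPM). The test of the difference itself gave -2.91 on the log2 scale (SE 0.564, edgeR adjusted p = 0.0783), which did not pass. In fitted levels, spleen cDC1s had 17.2 times the Cd300e of MLN cDC1s, and spleen T-bet+ cDC2s 2.28 times that of MLN T-bet+ cDC2s.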

How the results depend on the processing

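Member counts were recomputed under each alternative. Between MLN T-bet+ cDC2s and cDC1s and between MLN T-bet- cDC2s and cDC1s, at least 10 counts in every library gave 2 and 3 members instead of 4 and 5, since Cd300lb and Cd300ld were then not tested. Between the tissues, T-bet+ cDC2s gave 1 member instead of 0 with DESeq2 and with no filter on low counts, and the interactions of T-bet+ against T-bet- cDC2s, T-bet+ cDC2s against cDC1s and T-bet- cDC2s against cDC1s gave 1, 3 and 1 instead of 0 with no filter. Leaving out 1 library gave 3 to 5 members for MLN T-bet- cDC2s against cDC1s, 0 to 2 for T-bet+ and 1 to 3 for T-bet- cDC2s between the tissues. For these the cause was not tested.

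For windows, stricter limits (adjusted p 0.001, log2 fold change 1) gave 0, 5 and 4 instead of 2, 10 and 7 for T-bet+ against T-bet- cDC2s, T-bet+ cDC2s against cDC1s and T-bet- cDC2s against cDC1s. DESeq2 gave 0, 4 and 4, and at least 10 counts in every library gave 1, 5 and 4. Library size alone and windows within 10000 bases of the body each gave 1 for the first. Leaving out 1 library gave 0 to 2, 5 to 11 and 4 to 8. Of all windows, DESeq2 called 4922 instead of 10460 between the cDC2s.

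Signs turned only for values that had not passed, and leaving out 1 library gave these ranges of log2 values, of which the end with the turned sign comes without the library named. Between MLN cDC2s they were -0.46 (MLN T-bet+ replicate 1) to 0.86 for Cd300a, and -1.13 to 0.17 for Cd300e and -0.78 to 0.44 for Cd300lb (MLN T-bet+ replicate 2 for both). Cd300lb between the tissues in T-bet+ cDC2s ran from -0.77 to 0.43 (MLN T-bet+ replicate 1), and was 0.37 with library class as a term. The interaction of T-bet+ against T-bet- cDC2s ran from -0.16 (MLN T-bet+ replicate 2) to 0.95 for Cd300lf. That of T-bet- cDC2s against cDC1s ran from -3.13 to 1.11 for Cd300lb (positive without MLN cDC1 replicate 1 or 2 or spleen cDC1 replicate 3) and from -0.61 to 0.11 for Cd300ld (positive without MLN or spleen cDC1 replicate 1).

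Same-numbered RNA libraries of T-bet+ cDC2s and cDC1s deviated together (r from 0.111 to 0.17 over 3 pairs in spleen, 0.339 and 0.411 in MLN), while r was -0.488 to 0.0865 over the other 10 pairs and -0.0372 to 0.0193 in ATAC-seq. Numbered by library name instead, MLN T-bet- cDC2s gave r of 0.0878 with T-bet+ cDC2s and 0.036 and 0.153 with cDC1s. Deviations of the 2 libraries of a subset mirror each other, so pairs with such subsets are not independent. The labels tie no number to an animal or day, and not every library correlated best with its own number. With the replicate number as a block, spleen T-bet+ against T-bet- cDC2s gave 3 members and 356 genes instead of 2 and 774, spleen T-bet+ cDC2s against cDC1s 4 members instead of 5, MLN T-bet- cDC2s against cDC1s 4 instead of 5 (without Cd300e, adjusted p = 0.0634) and the tissues in cDC1s 5 instead of 4. Counts of windows stayed at 2, 10 and 7. With the number in the library name as a block, Cd300a between MLN cDC2s was -0.40, and MLN T-bet+ cDC2s against cDC1s gave 5 members. Without spleen T-bet+ replicate 2 the genes called between spleen cDC2s fell to 307, and without T-bet- replicate 3 there were 1257. Of all genes, DESeq2 called 1412 there and no filter gave 1521. DESeq2 also called 2032, 1743, 3513, 2801 and 2243 genes instead of 952, 885, 1961, 855 and 1000 for MLN T-bet+ and T-bet- cDC2s against cDC1s and for the tissues within cDC1s, T-bet+ cells and T-bet- cells. Depth limits Cd300lb and Cd300ld in MLN cDC1s, where libraries held 0 to 18 reads.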
